A study of Gallus gallus with 20 samples.

Results

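Hepatic complement and coagulation transcripts were followed through 20 liver libraries of Guangxi Ma hens, a Chinese local breed of chicken, Gallus gallus. The members are 40 gene symbols listed for plasma proteins of clotting, fibrinolysis and complement that the liver secretes, and 36 of them have a row among the 21749 genes of the table. CFB, C4BPA, F11 and C9 have none under these symbols and were not analysed here. RefSeq gives C4BPA as a synonym of C4BPM, whose row (3.84 to 6.57 TPM) was not counted as a member. It gives F11 as a synonym of CNTN1, a contactin and not the clotting factor. All 36 members had at least 1 TPM in 20 of 20 libraries, so a filter on low values removed none.

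The hens fall into 5 groups of 4 libraries: week 32, week 50 with high or low laying performance (week 50 high, week 50 low), and week 72 with high or low laying performance (week 72 high, week 72 low). All are hens of 1 breed, and the labels name no genetic change, treatment or agent. The sample labels mark the week 32 hens as high in laying performance, whereas the design names them by age alone, and they are called week 32 here. The series addresses genes of yolk precursor synthesis in hens that differ in laying rate. The labels do not say that each library came from its own hen, so p-values measure the spread between these libraries, which may be technical. In whole liver, fewer hepatocytes and less RNA per hepatocyte cannot be told apart.

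Fibrinogen is a hexamer of alpha, beta and gamma chains (FGA, FGB, FGG) that thrombin cuts into fibrin, the mesh of a clot. Prothrombin and its relatives (F2, F7, F9, F10, and the anticoagulants PROC, PROS1 and PROZ) bind membranes only after a vitamin K dependent enzyme has carboxylated their glutamates. In mammals, the classical pathway of complement uses the proteases C1R and C1S, and the lectin pathway uses MASP1 and MASP2. Complement converges on C3 and ends in the terminal components C5 to C9, which assemble a pore in the target membrane. Hepatocytes make most of these proteins and, in laying hens, also the yolk precursors, under oestrogen, and fibrinogen is a classical acute phase protein.

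Values are TPM, the share of each transcript in its library after scaling for length, and can be compared between genes. A library's TPM total over the table was 764047 to 852815. This is below a full TPM total, so some transcripts of each library have no row, and ranks and percentages refer to the listed genes. Since TPM keeps no read depth, no counting interval is given. Libraries are numbered by their replicate number. In the test used throughout, limma on log2(TPM + 1) with all 20 libraries in the fit and 12808 genes tested, a gene counts as called at an adjusted p under 0.05. The hepatocyte markers sum to 44919 to 98752 TPM over the libraries (8 of 9 in the table, FGB among them), against 96.3 to 209 TPM for endothelial cells (9 of 9), 1463 to 5055 TPM for macrophages (8 of 8), 58.6 to 266 TPM for stellate cells (8 of 8), 154 to 3781 TPM for red cells (4 of 6), 57.8 to 11084 TPM for B or plasma cells (5 of 6), 46.9 to 246 TPM for T or NK cells (6 of 6) and 7.37 to 21.3 TPM for thrombocytes (6 of 6). No marker was at 0 in every library (0 in each list). Week 50 high library 1, week 50 low library 3 and week 72 low library 2 are called the libraries that stand apart, since they had the lowest median Spearman correlations with the other libraries over all genes tested (0.928, 0.923 and 0.923, against 0.934 to 0.953 in the other 17). By another measure, the median absolute deviation from the gene means, week 50 low library 4 was the farthest (0.357, against 0.340, 0.342 and 0.325 log2 units in those 3).

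Fibrinogen led the whole list. Averaged over the 20 libraries, FGG had 13243 TPM (5825 to 29941 TPM), FGB 9004 TPM (4601 to 21118 TPM) and FGA 8664 TPM (4319 to 19003 TPM), which placed them at ranks 5, 10 and 13 of the 12808 genes tested. The next were VTN, the adhesion and terminal complement regulator vitronectin (4267 TPM), C3, the central complement component (4265 TPM), PLG, the fibrinolytic zymogen plasminogen (1990.3 TPM), and F2, prothrombin (1567 TPM). VTN and C3 differed by less than their spread, as did F2 and SERPING1, the C1 inhibitor (1557 TPM). KNG1, the kininogen of the contact system, averaged 1058 TPM and SERPIND1, heparin cofactor II, 880.1 TPM. C1S, C1R, HABP2, F9, C8A, SERPINC1, CFI, C8G, CPB2, SERPINF2, C2, C8B, PROS1, F5, C6, F10 and PROC lay between 766 and 127 TPM in mean level.

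The lower end of the order held 9 genes of several roles. PROZ averaged 98.1 TPM, C5 87.03 TPM, F13B, the carrier subunit of factor XIII, 59.9 TPM, F7, the factor that starts clotting with tissue factor, 55.6 TPM, MASP1 46.6 TPM, MASP2 26.9 TPM and C7 22.96 TPM. KLKB1, plasma prekallikrein, averaged 5.42 TPM and F8, the cofactor of factor IX, 4.96 TPM, and their ranges (2.36 to 8.68 TPM and 2.33 to 7.57 TPM) overlapped almost wholly.

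**Figure D1:**
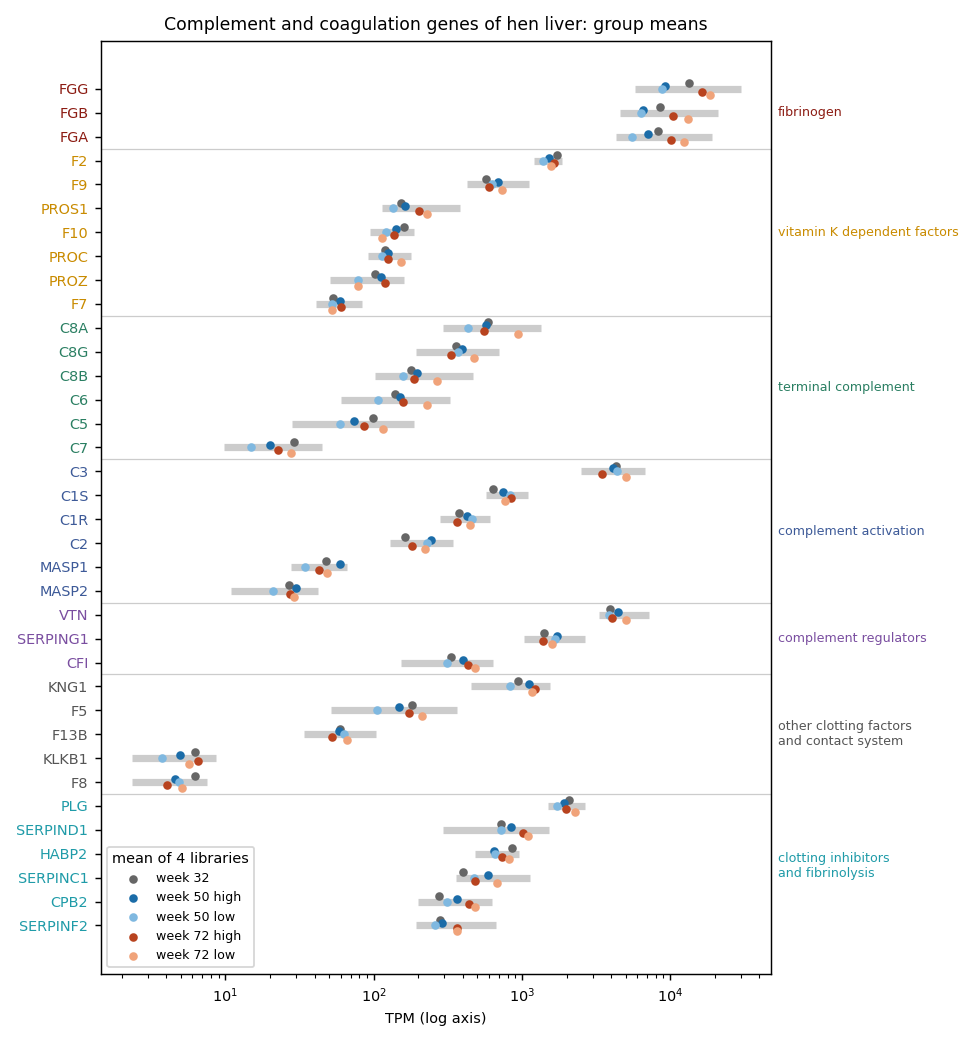
Mean TPM of 4 libraries per group (points, coloured by group) for the 36 members on a log axis, with members in rows by role and grey bars from the lowest to the highest of the 20 libraries. The fibrinogen chains lie farthest right (means over all libraries of 13243, 9004 and 8664 TPM) and F8 farthest left (4.96 TPM).

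Together the 36 members held 4.44 to 11.9% of the listed TPM of a library, and the 3 fibrinogen chains alone held 2.06 to 8.39%. Fibrinogen made up 39.97 to 75.3% of the members' sum. The summed fibrinogen level was 30020.3 ± 7208 TPM at week 32, 22953 ± 3438 in week 50 high, 20667 ± 4195 in week 50 low, 36838 ± 21067 in week 72 high and 44078 ± 20033 in week 72 low (SD, n = 4 each). The spread was wider at week 72, where single libraries had 66708, 36100.0, 19601 and 24941 TPM in week 72 high libraries 1 to 4 and 69055, 32833, 23808 and 50615 TPM in week 72 low libraries 1 to 4. Of each week 72 class, library 1 was the highest library and library 3 the lowest. At week 50 the 8 libraries lay between 16698 and 26859.6 TPM, and the lowest week 72 libraries lie inside that range.

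As a sum, the 7 vitamin K dependent genes were steadier. Their sum was 2868 ± 168 TPM at week 32, 2812 ± 177 in week 50 high, 2519.7 ± 183 in week 50 low, 2881 ± 203 in week 72 high and 2936 ± 494 in week 72 low (SD, n = 4 each). Prothrombin was its largest single part in every library. The terminal complement sum of C5, C6, C7, C8A, C8B and C8G was 1397 ± 252 TPM at week 32, 1412 ± 237 in week 50 high, 1141 ± 263 in week 50 low, 1345 ± 213 in week 72 high and 2051 ± 871 in week 72 low. Within week 72 low it was 2387, 2921, 865 and 2033 TPM in libraries 1 to 4, and library 3 was the lowest of the 20 libraries, the next lowest being week 50 low library 1 with 926 TPM. The fibrinogen sum was 10.5 ± 2.78 times the vitamin K dependent sum at week 32, 8.14 ± 0.921 times in week 50 high, 8.23 ± 1.67 times in week 50 low, 12.8 ± 7.17 times in week 72 high and 15.1 ± 6.46 times in week 72 low. The ratio ranged from 6.13 to 23.04 over the 20 libraries. The terminal complement sum was 0.492 ± 0.114 of the vitamin K dependent sum at week 32. It was 0.505 ± 0.0985 in week 50 high, 0.450 ± 0.0801 in week 50 low, 0.469 ± 0.0777 in week 72 high and 0.688 ± 0.248 in week 72 low. Week 72 low held both the lowest and the highest ratio of the 20 libraries (0.332 and 0.875).

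**Figure D2:**
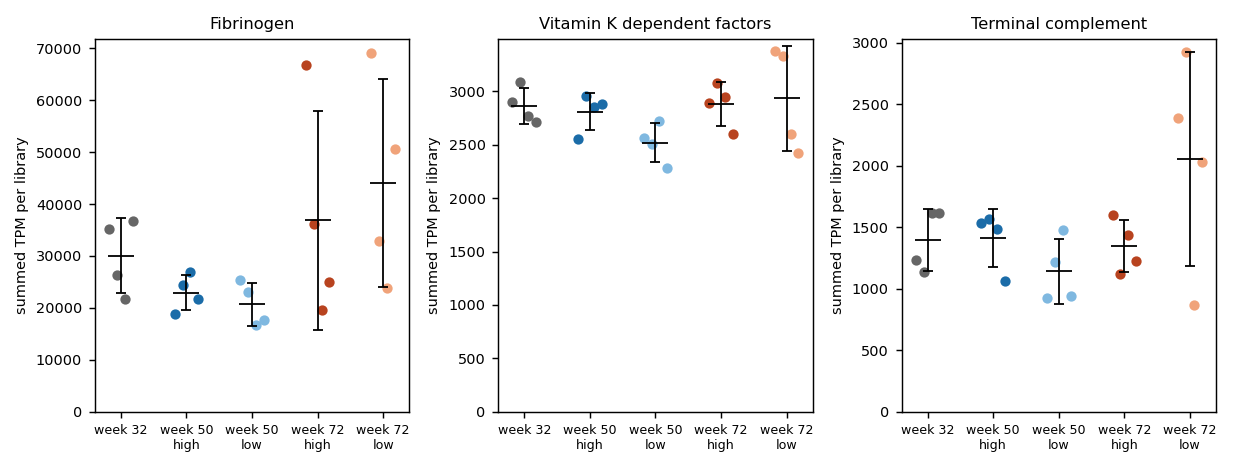
Summed TPM of fibrinogen, the vitamin K dependent genes and terminal complement in every library (points), by group, with the group mean and SD (n = 4). The fibrinogen sums of the week 72 groups (36838 ± 21067 in week 72 high and 44078 ± 20033 in week 72 low) spread most, and the vitamin K dependent sums stay between 2282 and 3381 TPM.

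Spread between libraries of 1 group differed by role. The within-group SD of log2(TPM + 1) had a median of 0.41 over the members, against 0.36 over all genes tested and 0.35 over the 987 tested genes with a mean of at least 100 TPM. It was 0.58 for terminal complement, 0.54 for fibrinogen, 0.43 for the other clotting and contact genes, 0.39 for the complement regulators, 0.38 for clotting inhibitors and fibrinolysis, 0.34 for complement activation and 0.27 for the vitamin K dependent genes. F2 was the steadiest member (SD 0.16, 1197 to 1857 TPM). Of the other vitamin K dependent genes, PROC, F10 and F7 had SD of 0.21, 0.24 and 0.27, and F9, PROS1 and PROZ 0.34, 0.37 and 0.41. C6, C5, F5 and C7 were the least steady (SD 0.66, 0.62, 0.62 and 0.61), and F5, the cofactor of factor X, ran from 51.2 to 365 TPM. These are descriptions of the spread, and no test was made between roles.

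The 3 libraries that stand apart lay on the same side of the other 17 for many members. They were picked for low correlations over all genes tested, members included, so departures from the other 17 are partly built in. All 3 lay above the median of the other 17 for 12 members and below it for 13. Shares of all genes were not computed for these counts or for the separations below, so neither marks a trait of the members. VTN had 5034 to 7213 TPM in the 3 libraries, against 3321 to 4939.9 TPM in the other 17, and C2, C3, F9 and SERPING1 likewise lay above every other library. For C3 these values were 5979.9 to 6724 TPM in the 3 libraries, against 2509 to 5946 TPM in the other 17. On the low side, the coagulation cofactor F5 had 51.2 to 120.3 TPM in the 3 libraries, against 98.1 to 365 TPM in the other 17, and CFI, the protease that inactivates C3b, had 152 to 281 TPM in the 3 libraries, against 244 to 639 TPM in the other 17. C5, KNG1, SERPIND1, KLKB1, PLG and HABP2 were also below that median in all 3, while C8B, C8G and C6 were above it in all 3. Apart from these, week 72 low library 1 held the highest value of the 20 libraries for 12 members, among them FGA, FGB, PROC, PROS1, C5, F5 and PLG, and week 50 low library 4 the lowest for 8, among them FGA, C6, C7 and C8B. The share of all genes with their highest or lowest value in these libraries was not computed either. Week 50 low library 4 was also the farthest over all genes by median absolute deviation (0.357 log2 units). Over the 36 members, the deviation in a library was set against the span of the gene in the genome. Spearman's rho was -0.363, -0.235 and -0.346 in the 3 libraries that stand apart, in the order named above. It was -0.391 in week 50 low library 4, and from -0.235 to 0.452 in the remaining libraries. The parts of gene length and library quality in these patterns were not tested.

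**Figure D3:**
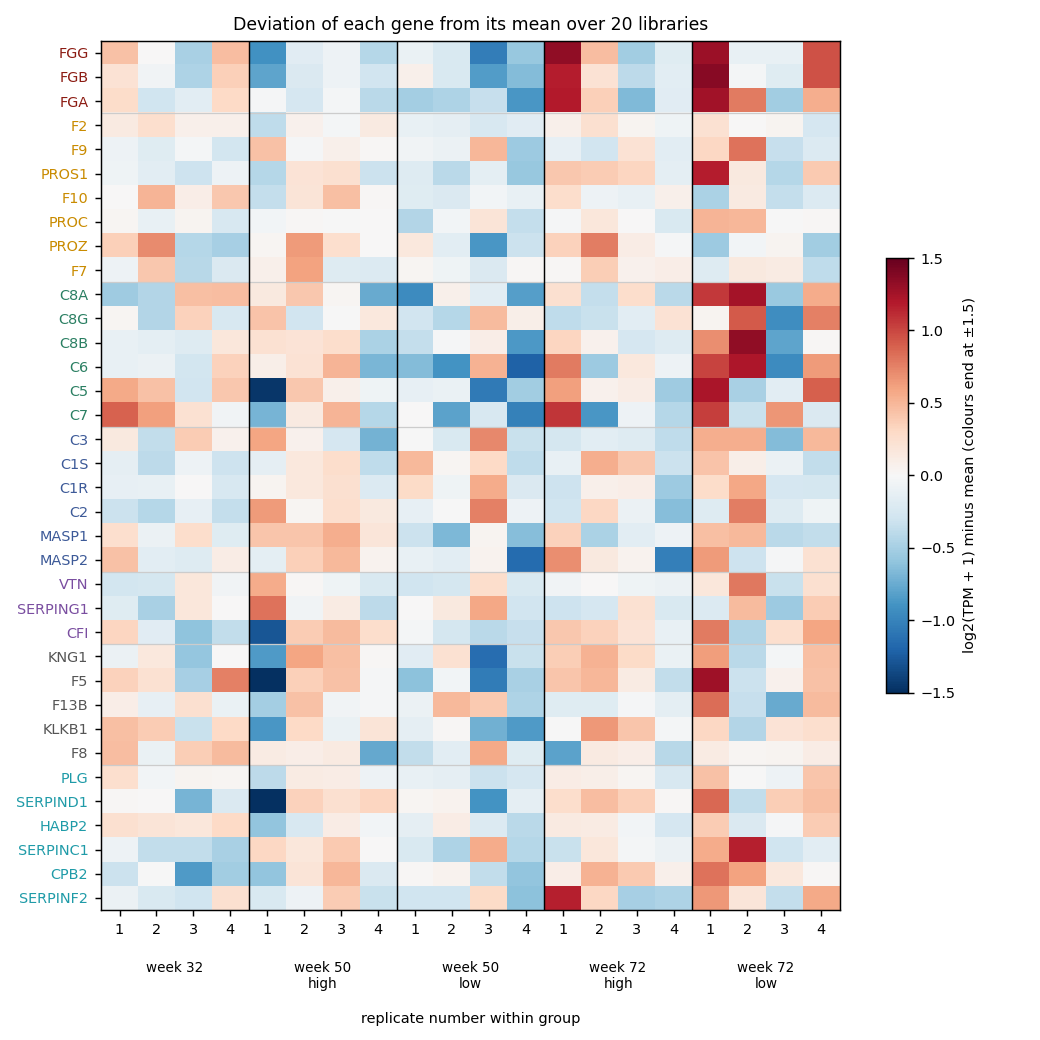
Each member's log2(TPM + 1) minus its own mean over 20 libraries (colour scale), with members in rows by role and libraries in columns by group. Week 72 low library 1 is above the mean for most members, and week 50 high library 1, week 50 low library 3 and week 72 low library 2 share opposed blocks of high and low genes.

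Several members are neighbours in the genome (RefSeq positions on build GRCg7b, the build that the submitters' processing notes name). The 36 members lie on 14 chromosomes, and 12 of them form 7 neighbouring pairs within 100 kb. FGB, FGA and FGG follow each other on chromosome 4 from 19775352 to 19804550, with gaps of 6119 and 5077 bases. C8A and C8B, the alpha and beta chains of the pore component C8, lie 4134 bases apart on chromosome 8 (25493034 to 25528926), and C7 and C6 lie 7119 bases apart on chromosome Z (13469165 to 13523442). C1S and C1R lie 3329 bases apart on chromosome 1 (77328480 to 77348374), and PROZ, F10 and F7 share another stretch of chromosome 1 (137574171 to 137617630), with 1 gene between PROZ and F10. The remaining members have no other member within that distance.

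Members that form a complex or lie side by side, and 3 pairs across roles, were compared over the 20 libraries in 14 pairs. Permutation p-values (100000 resamples) were adjusted by Benjamini-Hochberg over the 28 coefficients. The permutations shuffled all 20 libraries across the groups, so differences between groups enter these p-values, and r within groups has no p-value. FGB and FGG gave Pearson's r = 0.984 and Spearman's rho = 0.979 (adjusted permutation p = 0.00014 and 0.00014), of which 0.00014 comes from the smallest p these permutations can give, 1e-05. Their r was 0.975 without the 2 libraries farthest from the median, 0.981 within groups and 0.981 without the 3 libraries that stand apart. Here and below, those 2 libraries were picked by the first-named gene of a pair alone, which narrows the range of that gene. FGA followed them less closely, with Pearson's r = 0.811 and Spearman's rho = 0.690 (adjusted permutation p = 0.000224 and 0.00305) against FGB and r = 0.796 against FGG. Within groups its r against FGG was 0.703. For FGA and FGB, without the 2 libraries farthest from the median r was 0.610, within groups it was 0.724, and without the 3 libraries that stand apart it was 0.933. The ratio of FGA to FGB ranged from 0.643 to 1.70, against 1.27 to 1.72 for FGG to FGB, and in week 50 high library 1 and week 72 low library 2 FGA exceeded FGB most.

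Among the C8 chains, r was higher for C8A with C8B than for C8G with either, a contrast that was not tested. C8A and C8B gave Pearson's r = 0.814 and Spearman's rho = 0.716 (adjusted permutation p = 0.000187 and 0.00171), with r = 0.668 without the 2 farthest libraries, 0.783 within groups and 0.759 without the 3 libraries. C8G, the lipocalin chain on chromosome 17, gave r = 0.421 with C8A and 0.451 with C8B, and neither passed (adjusted permutation p = 0.121 and 0.0949). Without the 3 libraries these r were 0.252 and 0.125. C1R and C1S gave Pearson's r = 0.716 and Spearman's rho = 0.743 (adjusted permutation p = 0.00122 and 0.00100). Their r was 0.800 without the 2 farthest libraries, 0.815 within groups and 0.820 without the 3. In the chromosome 1 stretch F7 and PROZ gave Pearson's r = 0.770 and Spearman's rho = 0.680 (adjusted permutation p = 0.000224 and 0.00341). Their r was 0.736 without the 2 farthest libraries, 0.780 within groups and 0.798 without the 3. F10, which lies between them, gave r = 0.158 with F7 and 0.342 with PROZ (adjusted permutation p = 0.569 and 0.198), and 0.172 and 0.392 without the 3. C6 and C7 gave r = 0.406 (adjusted permutation p = 0.125), with 0.286 within groups and 0.591 without the 3. Across roles, FGB gave r = 0.388 with C8A and 0.404 with F2, and C8A gave 0.0408 with F2, none of which passed. In the same order, r was 0.533, 0.169 and 0.0994 without the 3, and 0.150, 0.301 and -0.167 within groups. TPM values of 1 library share their denominator, and these coefficients describe shared variation only.

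No member was called in any of the 10 comparisons. Over 360 tests of 36 members the count at an adjusted p under 0.05 was 0, and 23 tests of 19 members had an unadjusted p under 0.05. No other tool was run, since TPM values are not counts. All differences that follow are log2 differences of TPM + 1 with their SE from that fit, and none is a call.

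Among low layers, most members had higher mean levels at week 72 than at week 50, with larger medians for fibrinogen and terminal complement than for the vitamin K dependent genes, a contrast that was not tested. Week 72 low minus week 50 low was above 0 for 29 of 36 members, against 36.6% of all genes tested, with a median of 0.45 against -0.09 over all genes. By role, medians were 0.99 for fibrinogen, 0.81 for terminal complement and 0.17 for the vitamin K dependent genes. An adjusted p under 0.05 was reached by 0 members, against 0.039% of all genes, and the smallest was 0.360. At an unadjusted p under 0.05, 10 members were higher, against 1.93% of all genes, and 0 were lower, against 6.6%. The 10 were FGA, FGB, FGG, PROC, PROS1, C6, C8A, F5, PLG and CPB2. Members share the deviations of single libraries and were chosen with earlier results of these data known. The count is therefore no test of the members as a set.

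FGA had 19003, 13681, 5525 and 11543 TPM in week 72 low libraries 1 to 4, against 5591, 5759.6, 6273 and 4319 TPM in week 50 low libraries 1 to 4. FGB had 21118, 8063, 7275 and 15888 TPM in week 72 low libraries 1 to 4, against 8697, 7048, 4601 and 5248 TPM in week 50 low libraries 1 to 4. FGG had 28935, 11089.5, 11009 and 23184 TPM in week 72 low libraries 1 to 4, against 11108, 10161, 5825 and 8037 TPM in week 50 low libraries 1 to 4. In all 3 chains week 72 low libraries 1 and 4 lay above all 4 week 50 low libraries, and library 3 lay inside their range, so the groups overlapped. The differences were 1.06 ± 0.37 for FGA (SE, unadjusted p = 0.00933, adjusted p = 0.360), 0.93 ± 0.37 for FGB and 0.99 ± 0.40 for FGG, with exact permutation p = 0.114, 0.114 and 0.0857, where the smallest possible is 0.0286 (two-sided, n = 4 each). C8A had 1187, 1351, 387 and 834 TPM in week 72 low libraries 1 to 4, against 295, 598, 509 and 320.3 TPM in week 50 low libraries 1 to 4. Its difference was 1.04 ± 0.37 (unadjusted p = 0.0112, adjusted p = 0.374), and library 3 of week 72 low again sat among the week 50 low values. PROS1 had 384, 187, 125 and 222 TPM in week 72 low libraries 1 to 4, against 147, 127, 153 and 113 TPM in week 50 low libraries 1 to 4. PROS1, the cofactor protein S (chromosome 1, 89858447 to 89891089), differed by 0.65 ± 0.26 (unadjusted p = 0.0195), and its groups overlapped.

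PLG was the only member whose 4 week 72 low libraries all lay above the 4 week 50 low ones (2667, 1961, 1865 and 2637 TPM in week 72 low libraries 1 to 4, against 1817, 1798, 1581 and 1649.6 TPM in week 50 low libraries 1 to 4), a separation met by 0.765% of all genes, and 0 members separated as lower, against 2.4%. Its difference was 0.40 ± 0.18 (unadjusted p = 0.0401, adjusted p = 0.544). The count of 10 was 2 without week 72 low library 1 or without week 50 low library 4 (against 1.24 to 1.31% of all genes), 17 without week 72 low library 3 (against 2.53%) and 14 without the 3 libraries that stand apart (against 2.66%). With the values rescaled by median ratios, 36 of 36 members were above 0, against 50.4% of all genes, whose median was then 0.00. With totals that leave out the yolk genes 28 were, against 29.4%. Week 72 low library 3 was also the only library of its group with a high VTG2, the vitellogenin yolk precursor (13572 TPM, against 725, 95.1 and 241 TPM in libraries 1, 2 and 4). Summed markers were 62544 to 98752 TPM in week 72 low and 44919 to 71494 TPM in week 50 low for hepatocytes, 1463 to 2565 TPM and 1688 to 5055 TPM for macrophages, 57.8 to 384 TPM and 175 to 11084 TPM for B or plasma cells, 790.0 to 1503 TPM and 154 to 3781 TPM for red cells, 144 to 173 TPM and 99.3 to 151 TPM for endothelial cells, and 47.4 to 115 TPM and 46.9 to 246 TPM for T or NK cells. The hepatocyte sum includes FGB. Of the hepatocyte markers 3 were above 0 and 5 below 0 (median -0.17), and the highest was FGB itself (0.93). Of the endothelial markers 7 of 9 were above 0 (median 0.23), and of the T or NK markers 6 of 6 were below 0 (median -0.75). The B or plasma cell markers had the largest shift, with 5 of 5 below 0 (median -1.90) and 4 lower at an unadjusted p under 0.05. Of the macrophage markers 5 of 8 were below 0 (median -0.30), and of the red cell markers 3 of 3 were above 0 (median 0.70). Their part in the result was not tested.

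**Figure D4:**
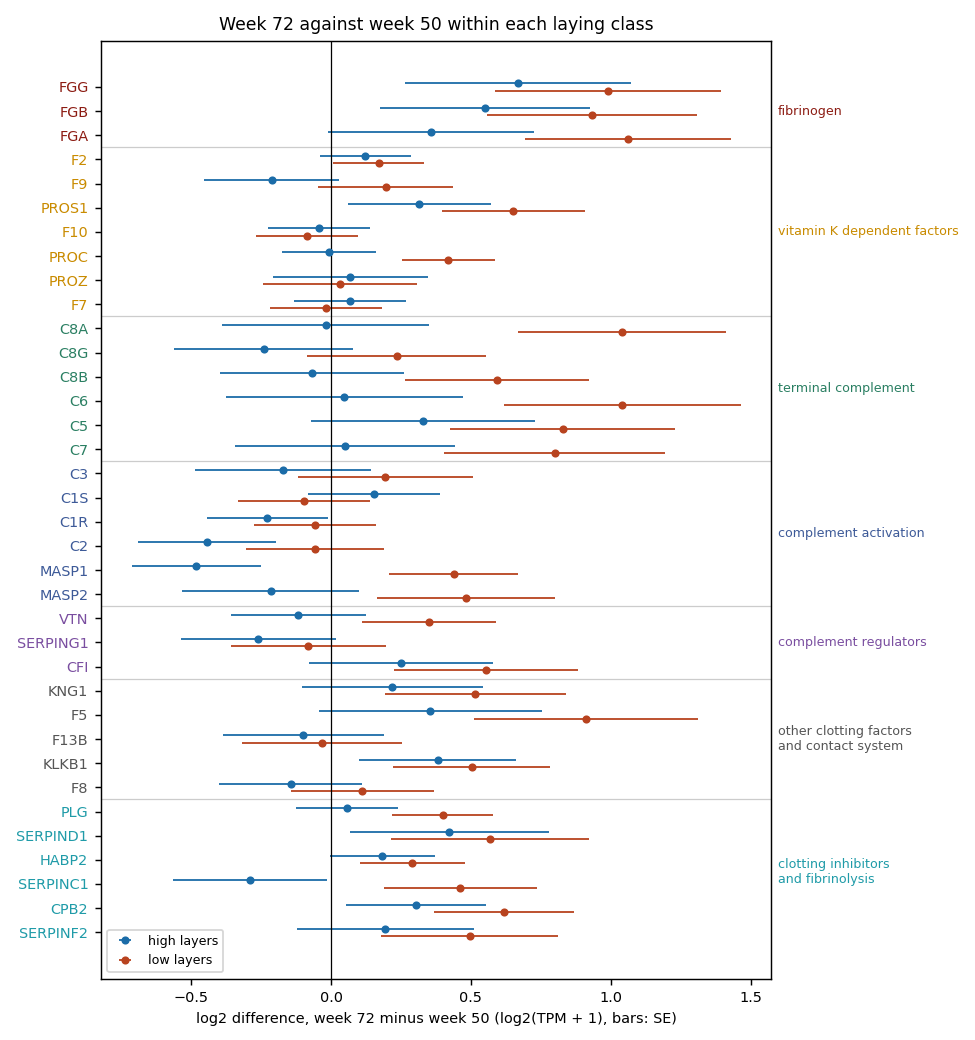
Log2 difference of TPM + 1 with SE for each member, week 72 high minus week 50 high (blue) and week 72 low minus week 50 low (red), with members in rows by role. In low layers 29 of 36 points lie above 0, led by FGA (1.06), C6 (1.04) and C8A (1.04), and in high layers 20 of 36 do.

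Among high layers, mean fibrinogen levels were also higher at week 72, and the other contrasted roles had medians near 0. Week 72 high minus week 50 high was above 0 for 20 of 36 members, against 33.6% of all genes, and the median was 0.05 against -0.10. Fibrinogen had a median of 0.55, terminal complement 0.01 and the vitamin K dependent genes 0.07. No member had an adjusted p under 0.05 (0, against 0% of all genes), and 0 were higher and 0 lower at an unadjusted p under 0.05, against 0.586% and 4.01% of all genes. With median-ratio scaling 26 members were above 0, against 52.5% of all genes, and without the 3 libraries that stand apart 16 were, against 22.3%. The count of members lower was 1 without week 50 high library 4, week 50 low library 3, week 72 high library 1 or 2, or any 1 of the 4 week 72 low libraries (against 2.04 to 4.91% of all genes), and that of members higher was 1 without week 72 high library 3 (against 0.518%). Red cell markers summed to 664 to 945 TPM in week 72 high and 192 to 289.9 TPM in week 50 high, with 3 of 3 higher at an unadjusted p under 0.05 (median 1.78). T or NK markers summed to 59.4 to 146 TPM in week 72 high and 123 to 198 TPM in week 50 high, with 4 of 6 lower (median -0.95), and the part of these cells was not tested. Whether the age difference differed between high and low layers is the same test as whether the laying difference differed between ages, given with that comparison.

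FGA had 18153, 10181, 5026 and 7045 TPM in week 72 high libraries 1 to 4, against 7820.3, 6677, 7768 and 5993 TPM in week 50 high libraries 1 to 4. FGB had 18614, 9524, 6252 and 7347 TPM in week 72 high libraries 1 to 4, against 4749.6, 7102, 7778 and 6761 TPM in week 50 high libraries 1 to 4. FGG had 29941, 16395, 8323 and 10548 TPM in week 72 high libraries 1 to 4, against 6346, 10634, 11314 and 8869 TPM in week 50 high libraries 1 to 4. Week 72 high libraries 1 and 2 lay above all week 50 high libraries in all 3 chains, library 4 lay inside their range in all 3, and library 3 lay inside it for FGB and FGG and below it for FGA. The differences were 0.36 ± 0.37, 0.55 ± 0.37 and 0.67 ± 0.40 (SE), with unadjusted p = 0.343, 0.158 and 0.115. Without week 72 high library 1 they were 0.02, 0.23 and 0.32. MASP1 had 57.6, 32.03, 40.1 and 42.4 TPM in week 72 high libraries 1 to 4, against 60.3, 60.2, 65.9 and 51.3 TPM in week 50 high libraries 1 to 4. MASP1, in mammals a lectin pathway protease (chromosome 9, 14559128 to 14576650), differed by -0.48 ± 0.23 (unadjusted p = 0.0511). For it, 3 of the 4 week 72 high libraries lay below all week 50 high ones. No member separated the groups (0 higher and 0 lower, against 0.336% and 3.25% of all genes). C2 had 163, 249, 189 and 129 TPM in week 72 high libraries 1 to 4, against 312, 205, 239.7 and 222 TPM in week 50 high libraries 1 to 4. C2, in mammals the protease subunit of the classical C3 convertase (chromosome 23, 2142468 to 2148760), differed by -0.44 ± 0.25 (unadjusted p = 0.0889), with overlapping groups.

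Between laying classes at week 72, mean levels were lower in high layers for most members. Week 72 high minus week 72 low was above 0 for 7 of 36 members, against 55.8% of all genes, with a median of -0.20 against 0.03. Terminal complement had a median of -0.36, fibrinogen -0.32 and the vitamin K dependent genes 0.07. At an adjusted p under 0.05 the count was 0, against 0.00781% of all genes, and at an unadjusted p under 0.05 it was 0 higher and 0 lower, against 3.65% and 1.62%. Without week 72 low library 3, 6 members were lower and 1 higher at an unadjusted p under 0.05 (against 2.49% and 6.21% of all genes), and without the 3 libraries that stand apart 2 were higher (against 5.38%). The count of members higher was also 1 without week 32 library 2, 3 or 4, week 50 low library 1 or 3, week 72 high library 4 or week 72 low library 2 (against 3.2 to 4.49%). VTG2, the yolk precursor, had 12212, 15950.0, 12625 and 16071 TPM in week 72 high libraries 1 to 4, against 725, 95.1, 13572 and 241 TPM in week 72 low libraries 1 to 4, and its part in the result was not tested.

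PROZ had 119.7, 161, 101 and 92.2 TPM in week 72 high libraries 1 to 4, against 63.9, 91.02, 96.1 and 64.9 TPM in week 72 low libraries 1 to 4. PROZ, a vitamin K dependent cofactor for inhibition of factor Xa (chromosome 1, 137574171 to 137581433), had 3 of 4 week 72 high libraries above all week 72 low ones and differed by 0.57 ± 0.28 (SE, unadjusted p = 0.0526, adjusted p = 0.929, exact permutation p = 0.0571). C8A had 673, 445, 685 and 431 TPM in week 72 high libraries 1 to 4, against 1187, 1351, 387 and 834 TPM in week 72 low libraries 1 to 4. It differed by -0.64 ± 0.37 (unadjusted p = 0.102), and week 72 low library 3 was the lowest of the 8 libraries. PROC had 124, 141, 126 and 107 TPM in week 72 high libraries 1 to 4, against 179, 178, 125 and 127 TPM in week 72 low libraries 1 to 4. PROC, the anticoagulant protease protein C (chromosome 9, 903313 to 912582), differed by -0.27 ± 0.17 (unadjusted p = 0.119), with overlap. FGA, FGB and FGG differed by -0.34 ± 0.37, -0.32 ± 0.37 and -0.23 ± 0.40, and the ranges of the groups overlapped in each. The groups were separated by 0 members as higher and 0 as lower, against 1.94% and 0.984% of all genes.

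At week 50 the direction was the other way for most members. Week 50 high minus week 50 low was above 0 for 30 of 36 members, against 59.8% of all genes, with a median of 0.18 against 0.05. Medians were 0.36 for terminal complement, 0.18 for the vitamin K dependent genes and 0.09 for fibrinogen. No member had an adjusted p under 0.05 (0, against 0% of all genes). MASP1 was the 1 member higher at an unadjusted p under 0.05, against 1.99% of all genes, and 0 were lower, against 0.976%. Members higher numbered 4 without week 50 high library 1 (against 5.12% of all genes), 3 without week 50 low library 3 (against 2.46%), 2 without week 32 library 2 or week 50 low library 1 (against 1.98 to 1.99%), and 6 without the 3 libraries that stand apart (against 5.11%). Red cell markers summed to 192 to 289.9 TPM in week 50 high and 154 to 3781 TPM in week 50 low, with 3 of 3 lower at an unadjusted p under 0.05 (median -1.54). B or plasma cell markers summed to 64.9 to 457 TPM in week 50 high and 175 to 11084 TPM in week 50 low, with 3 of 5 lower (median -2.03). In week 50 low, IGLL1, an immunoglobulin lambda-like gene, had 5466, 131, 9825 and 135 TPM in libraries 1 to 4, so libraries 1 and 3 were far above the other 2. The part of these cells in the result was not tested.

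MASP1 had 60.3, 60.2, 65.9 and 51.3 TPM in week 50 high libraries 1 to 4, against 35.7, 27.9, 46.5 and 28.6 TPM in week 50 low libraries 1 to 4. All 4 week 50 high libraries lay above all 4 week 50 low ones, which 1.26% of all genes did in this direction, and 0 members separated as lower, against 0.515% of all genes. The difference was 0.79 ± 0.23 (SE, unadjusted p = 0.00304, adjusted p = 1, exact permutation p = 0.0286, the smallest possible with 4 against 4). PROZ had 96.04, 147, 112 and 94.2 TPM in week 50 high libraries 1 to 4, against 105, 83.9, 50.7 and 74.5 TPM in week 50 low libraries 1 to 4. It differed by 0.53 ± 0.28 (unadjusted p = 0.0684), and the groups overlapped through week 50 low library 1. MASP2 had 23.1, 33.1, 36.2 and 26.7 TPM in week 50 high libraries 1 to 4, against 23.6, 22.9, 26.6 and 10.98 TPM in week 50 low libraries 1 to 4. MASP2, a lectin pathway protease (chromosome 21, 4066591 to 4096079), differed by 0.53 ± 0.32 (unadjusted p = 0.111), with week 50 low library 4 below the rest. FGA differed by 0.37 ± 0.37, FGB by 0.07 ± 0.37 and FGG by 0.09 ± 0.40, with exact permutation p = 0.0571, 0.857 and 0.714. For FGA, the week 50 high library was above the week 50 low one in 15 of 16 pairs. These SE pool the spread of all 20 libraries, and fibrinogen spread more at week 72. The SD of its mean log2 level was 0.76 and 0.69 in week 72 high and low, against 0.22 and 0.28 in week 50 high and low.

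**Figure D5:**
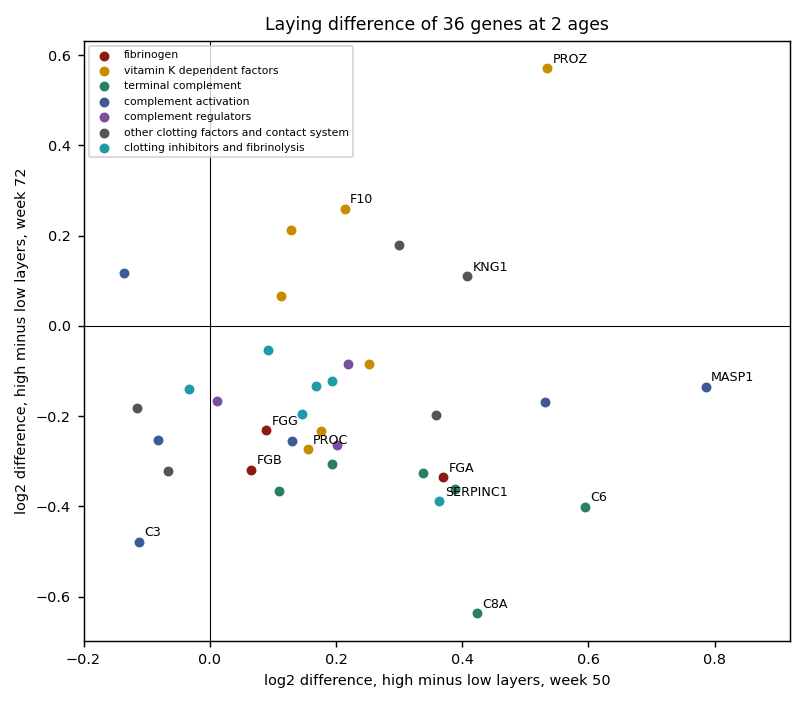
High minus low laying difference (log2 of TPM + 1) of each member at week 50 (x axis) and at week 72 (y axis), coloured by role. Of 36 points, 24 lie right of 0 and below 0, and 6 (F2, F7, F10, PROZ, KNG1 and KLKB1) lie above 0 at both ages. The matching shares of all genes were not computed.

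Over both ages, high minus low was above 0 for 18 of 36 members, against 59.3% of all genes, and the median was 0.00. Without the 3 libraries that stand apart 26 were above 0, against 70.3% of all genes, and with median-ratio scaling 12 were, against 48.5%. FGA, FGB and FGG differed by 0.02 ± 0.26, -0.13 ± 0.26 and -0.07 ± 0.29 (SE). PROZ was the 1 member higher at an unadjusted p under 0.05 (0.55 ± 0.20, unadjusted p = 0.0107, adjusted p = 0.645), against 4.68% of all genes, and 0 were lower, against 1.76%. No member reached an adjusted p under 0.05 (0, against 0.00781%). Members higher were 3 without week 72 low library 2 and without the 3 libraries (against 6.04 to 7.49% of all genes), and 2 without week 50 high library 1, week 50 low library 3, week 72 high library 2 or week 72 low library 1 (against 3.46 to 7.54%). Without week 72 low library 3, 1 member was lower, against 2.04%. MASP1 differed by 0.33 ± 0.16 and F10, the protease that cuts prothrombin, by 0.24 ± 0.13.

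The laying differences of 24 members were above 0 at week 50 and below 0 at week 72, those of 6 were above 0 at both ages, those of 5 below 0 at both, and that of C1S was below 0 at week 50 and above 0 at week 72. Shares of all genes with each pair of signs were not computed, and members share the deviations of single libraries. The difference at week 72 minus that at week 50 was above 0 for 4 of 36 members, against 48.9% of all genes, with a median of -0.34 against -0.01. It was -0.71 for terminal complement, -0.38 for fibrinogen and -0.05 for the vitamin K dependent genes. MASP1 (-0.92 ± 0.33, unadjusted p = 0.0112) was the 1 member lower at an unadjusted p under 0.05, against 1.15% of all genes, and 0 were higher, against 1.23%. C8A (-1.06 ± 0.52, unadjusted p = 0.0574) and SERPINC1, antithrombin (-0.75 ± 0.39, unadjusted p = 0.0672), were next. FGA, FGB and FGG gave -0.70 ± 0.52, -0.38 ± 0.53 and -0.32 ± 0.57 (SE), with unadjusted p = 0.191, 0.478 and 0.581. At an adjusted p under 0.05 the count was 0, against 0% of all genes. Members lower numbered 8 without week 72 low library 3 (against 1.66% of all genes), 4 without week 50 low library 3 or week 72 high library 1 (against 1.06 to 2.38%), 3 without week 72 low library 4 (against 1.35%), 2 without week 50 high library 1 or 4, week 50 low library 2 or week 72 high library 3 (against 0.949 to 1.96%), and 7 without the 3 libraries (against 3.44%).

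The 4 comparisons with week 32 share the week 32 libraries, so they are not independent of each other. The low groups differ from week 32 in age and, by the labels, also in laying class. Week 32 FGA levels were 9596, 6458, 7116 and 9759 TPM in libraries 1 to 4. FGB had 9554, 7913, 5991 and 10550.3 TPM and FGG 16125, 12031, 8551 and 16437 TPM in the same libraries. The chains of libraries 1 and 4 were above those of library 3. FGA, FGB and FGG differed from week 32 by -0.21, -0.36 and -0.50 in week 50 high, -0.58, -0.42 and -0.59 in week 50 low, 0.15, 0.19 and 0.17 in week 72 high, and 0.49, 0.51 and 0.40 in week 72 low, with SE of 0.37 to 0.40.

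Week 50 high was above week 32 for 21 of 36 members, against 69.1% of all genes, and the median was 0.07 against 0.13. Median-ratio scaling moved the median of all genes to -0.01, and 11 members were then above 0, against 48.5% of all genes. C2 was the 1 member higher at an unadjusted p under 0.05, against 8.49% of all genes, and HABP2 the 1 lower, against 1.53%, with 0 at an adjusted p under 0.05, against 0%. C2 had 312, 205, 239.7 and 222 TPM in week 50 high libraries 1 to 4, against 161, 149, 184 and 157 TPM in week 32 libraries 1 to 4. HABP2 had 482, 619, 789 and 706 TPM in week 50 high libraries 1 to 4, against 859, 831, 819.5 and 899 TPM in week 32 libraries 1 to 4. SERPINC1 had 619.8, 564, 655 and 504 TPM in week 50 high libraries 1 to 4, against 476, 386, 386 and 358 TPM in week 32 libraries 1 to 4. The groups did not overlap in any of these, nor for F9, and C2, SERPINC1 and F9 were higher and HABP2 lower in week 50 high. Over all genes, 7.19% separated as higher and 0.695% as lower. C2 differed by 0.57 ± 0.25 (unadjusted p = 0.0316), HABP2, a plasma protease that binds hyaluronan (chromosome 6, 28225325 to 28245202), by -0.41 ± 0.19 (unadjusted p = 0.0395) and SERPINC1 by 0.54 ± 0.27 (unadjusted p = 0.0615). HABP2 was past that threshold in the fit of all 20 libraries, and not without week 32 library 1, 2, 3 or 4, week 50 high library 1 or 2 or the 3 libraries. Members higher were 0 without week 32 library 1, 2 or 4 (against 6.89 to 9.8% of all genes), 2 without week 50 high library 1, week 50 low library 3 or week 72 low library 2 or 3 (against 8.66 to 11.9%), and 5 without the 3 libraries (against 14.3%). T or NK markers summed to 123 to 198 TPM in week 50 high and 59.6 to 77.1 TPM at week 32, with 5 of 6 higher at an unadjusted p under 0.05, and their part was not tested.

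Week 50 low was above week 32 for 10 of 36 members, against 62.3% of all genes, with a median of -0.22 against 0.09. Fibrinogen had a median of -0.58 and terminal complement -0.49. C7, KLKB1 and F10 were the 3 members lower at an unadjusted p under 0.05, against 2.19% of all genes, 0 were higher, against 6.72%, and 0 had an adjusted p under 0.05, against 0%. C7 had 20.9, 11.5, 17.5 and 9.79 TPM in week 50 low libraries 1 to 4, against 39.3, 32.4, 24.6 and 20.1 TPM in week 32 libraries 1 to 4. KLKB1 had 4.63, 5.24, 2.75 and 2.41 TPM in week 50 low libraries 1 to 4, against 7.40, 7.05, 3.90 and 6.56 TPM in week 32 libraries 1 to 4. F10 had 117, 114, 128 and 122 TPM in week 50 low libraries 1 to 4, against 133, 188, 142 and 175 TPM in week 32 libraries 1 to 4. F10 separated the groups and C7 and KLKB1 did not. FGA, F2, PLG and HABP2 also lay below all week 32 libraries in every week 50 low library, so 5 members separated as lower and 0 as higher, against 1.3% and 3.04% of all genes. C7 differed by -0.93 ± 0.39 (unadjusted p = 0.0285), KLKB1 by -0.62 ± 0.28 (unadjusted p = 0.0401) and F10 by -0.39 ± 0.18 (unadjusted p = 0.0447). Members lower numbered 0 without week 32 library 2 or week 50 low library 4 (against 1.75 to 2.04% of all genes), 1 without week 32 library 1 (against 1.89%), 5 without week 32 library 3 or week 50 low library 3 (against 2.05 to 2.24%), 6 without week 50 high library 1 (against 2.47%) and 4 without the 3 libraries (against 2.39%). Without week 50 low library 4, 1 member was higher, against 15.5%. B or plasma cell markers summed to 175 to 11084 TPM in week 50 low and 74.9 to 178 TPM at week 32, with 4 of 5 higher at an unadjusted p under 0.05. Endothelial markers summed to 99.3 to 151 TPM in week 50 low and 110.1 to 209 TPM at week 32, with 3 of 9 lower, and the part of these cells was not tested.

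CPB2, a carboxypeptidase that slows fibrinolysis (chromosome 1, 167884814 to 167900743), lay above every week 32 library in both week 72 groups. CPB2 had 385, 517, 473 and 379 TPM in week 72 high libraries 1 to 4, against 287, 359, 199 and 250.2 TPM in week 32 libraries 1 to 4. In week 72 low it had 629.6, 545, 401 and 363 TPM in libraries 1 to 4. The differences were 0.70 ± 0.25 in week 72 high (SE, unadjusted p = 0.0117, adjusted p = 0.859) and 0.82 ± 0.25 in week 72 low (unadjusted p = 0.00395, adjusted p = 0.432). Each had exact permutation p = 0.0286, the smallest possible, which any full separation of 4 against 4 libraries gives. CPB2 is named for its small p, and both comparisons use the same week 32 libraries. It was the only member to separate as higher in either comparison, against 2.48% of all genes in week 72 high and 1.87% in week 72 low. HABP2 separated as lower in week 72 high, against 1.7% of all genes, and 0 members did in week 72 low, against 1.83%.

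Week 72 high was above week 32 for 20 of 36 members (median 0.06, against 56.7% of all genes and a median of 0.04). CPB2 was the 1 member higher and F8 the 1 lower at an unadjusted p under 0.05, against 2.92% and 2.3% of all genes, and 0 had an adjusted p under 0.05, against 0.00781%. F8 had 2.33, 5.36, 5.18 and 3.33 TPM in week 72 high libraries 1 to 4, against 6.99, 4.42, 6.50 and 7.02 TPM in week 32 libraries 1 to 4. F8 differed by -0.55 ± 0.25 (unadjusted p = 0.0435) with overlap, and lost that threshold without week 32 library 1, 3 or 4 or week 72 high library 4. PROS1 had 223, 220.5, 211 and 152 TPM in week 72 high libraries 1 to 4, against 161, 151, 136 and 160.2 TPM in week 32 libraries 1 to 4. PROS1 differed by 0.39 ± 0.26 (unadjusted p = 0.142). Without the 3 libraries, 3 members were higher and 1 lower, against 4.27% and 2.96% of all genes. Red cell markers summed to 664 to 945 TPM in week 72 high, 790.0 to 1503 TPM in week 72 low and 167 to 369 TPM at week 32, and their part was not tested.

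Week 72 low was above week 32 for 27 of 36 members (median 0.26, against 50.2% of all genes and a median of 0.00). CPB2 and SERPINC1 were the 2 members higher and F10 the 1 lower at an unadjusted p under 0.05, against 3.29% and 4.4% of all genes, with 0 at an adjusted p under 0.05, against 0%. F10 had 94.6, 146, 103 and 115 TPM in week 72 low libraries 1 to 4, against 133, 188, 142 and 175 TPM in week 32 libraries 1 to 4. SERPINC1 had 735, 1127, 408 and 448 TPM in week 72 low libraries 1 to 4, against 476, 386, 386 and 358 TPM in week 32 libraries 1 to 4. F10 differed by -0.48 ± 0.18 (unadjusted p = 0.0164) and SERPINC1 by 0.64 ± 0.27 (unadjusted p = 0.0299), and both groups overlapped, with week 72 low library 2 the highest of its group for each. Members higher numbered 10 without week 72 low library 3 (against 4.06% of all genes) and 1 without week 32 library 2, 3 or 4 or week 72 low library 1 (against 2.31 to 3.58%). The count lower was 0 without week 32 library 2 or week 72 low library 1, against 2.93 to 3.49%. Without the 3 libraries 3 were higher and 1 lower, against 3.07% and 5.02%.

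Other genes of these pathways gave no call either (0 in each list over the 10 comparisons). Of 22 further coagulation and fibrinolysis genes 17 were tested, and in week 72 low minus week 50 low 4 were higher and 0 lower at an unadjusted p under 0.05. Of the 17, 12 were above 0 and 5 below 0 (median 0.19). In that comparison 1.93% of all genes were higher and 6.6% lower at the same threshold, and 36.6% were above 0 (median -0.09). These shares stand behind the counts of each further list. VWF, the carrier of factor VIII and the platelet tether, which is also an endothelial marker, had 24.7, 14.2, 23.4 and 15.3 TPM in week 72 low libraries 1 to 4, against 6.71, 8.37, 8.23 and 9.17 TPM in week 50 low libraries 1 to 4. It differed by 1.13 ± 0.26 (adjusted p = 0.112), and ADAMTS13, the protease that trims von Willebrand factor, by 1.14 ± 0.28 (adjusted p = 0.142). PLAU, urokinase, differed by 1.35 ± 0.44 in week 50 high minus week 32. Of 26 further complement genes 17 were tested, with 2 higher and 0 lower in week 72 low minus week 50 low. There 6 were above 0 and 11 below 0 (median -0.03). The laying difference at week 72 minus that at week 50 was -1.19 ± 0.40 for COLEC10, a liver collectin, and C1QC, a chain of C1q made by macrophages, differed by 0.88 ± 0.33 in week 50 low minus week 32 and by 0.58 without week 50 low library 3.

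The vitamin K cycle list had 8 of 10 genes tested, and in week 72 low minus week 50 low 3 were above 0 and 5 below 0 (median -0.25). At an unadjusted p under 0.05, 1 was higher and 1 lower. The higher one was PROS1 itself, which this list shares, and the lower one was TXNDC5, a protein disulfide isomerase. TXNDC5 had 13.02, 18.9, 19.1 and 13.03 TPM in week 72 low libraries 1 to 4, against 43.4, 16.3, 109.9 and 20.7 TPM in week 50 low libraries 1 to 4. It differed by -1.14 ± 0.40 (adjusted p = 0.373) and by -0.61 without week 50 low library 3. Week 50 low libraries 1 and 3, the highest for TXNDC5, were also the highest for the plasma cell gene JCHAIN (1053, 34.5, 1147 and 45.4 TPM in week 50 low libraries 1 to 4), whose part was not tested. VKORC1, the epoxide reductase that regenerates vitamin K, differed by -0.68 ± 0.25 in week 72 high minus week 50 high (unadjusted p = 0.0130) and by -0.43 without week 72 high library 1. In the acute phase list 15 of 22 genes were tested, and 0 were higher and 1 lower in week 72 low minus week 50 low. The lower one was AHSG, fetuin A (-1.30). The list joins plasma proteins with genes of IL-6 signalling, which need not move in 1 direction, so its counts do not test an acute phase response. Of the 15, 11 were above 0 and 4 below 0 (median 0.17, from -1.30 to 0.93), against 36.6% of all genes above 0 (median -0.09). In week 72 low minus week 32, AHSG differed by -1.72 ± 0.48 and AMBP, the precursor of bikunin, by 0.59 ± 0.23. Without week 72 low library 2 these differences were -1.40 and 0.42. FN1, fibronectin, differed by -0.93 ± 0.33 in week 72 high minus week 72 low. Of 15 hepatocyte transcription factors 13 were tested, with 0 higher and 1 lower in week 72 low minus week 50 low. There 5 were above 0 and 8 below 0 (median -0.06). CEBPA differed by 0.97 ± 0.26 in week 50 low minus week 32 (adjusted p = 0.393) and by 0.74 without week 50 low library 3. For FOXA1 the laying difference at week 72 minus that at week 50 was -0.98 ± 0.38.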

How the data were processed

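Liver total RNA was extracted with RNAiso Plus and sequenced after mRNA enrichment, per the labels' protocols. The authors deposited 1 table of TPM values for 21749 genes in 20 libraries, and the genome build was GRCg7b, per the submitters' processing notes. The aligner, the counter, the annotation and any filters were not given in the sources used here. Since TPM keeps no depth, no counting error can be given.

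From the TPM values, log2(TPM + 1) was tested with limma 3.58.1 (R 4.3.3; moderated, trend allowed) on the 12808 genes that reached 1 TPM in 4 or more libraries. All 20 libraries entered 1 fit of 5 group means with 15 residual degrees of freedom and 10 contrasts. P-values were adjusted by Benjamini-Hochberg over all genes tested. For single genes, two-sided exact permutation tests used the 4 against 4 libraries. On simulated data with 12808 genes the fit called 48% of genes changed by 1 log2 unit and 91% of those changed by 2 in week 50 high minus week 50 low, and 48% and 93% in week 72 high minus week 72 low. The noise was drawn independently per gene and library, without shared library deviations, and changed genes were picked at random above a minimum level. Within-group SD was 0.54 for fibrinogen, 0.58 for terminal complement and 0.27 for the vitamin K dependent genes, against 0.36 over all genes tested. The simulated shares therefore do not give the rate for these roles.

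The members and lists were chosen with earlier results of these data known. In each comparison the 3 members with the smallest p and the 3 fibrinogen chains are named. Replicate numbers came from the titles, and same-numbered libraries of different groups had correlations of deviations from group means between -0.27 and 0.28 (40 pairs), so they were not treated as pairs. Alternatives were other pseudocounts, filters and scalings, a replicate block, only the groups compared, and libraries left out. Gene positions came from RefSeq on GRCg7b. Sequences were not used here, and some single genes of the pathway lists are not reported here.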

Additional observations from a re-analysis of the deposited data

Results flagged for a closer look

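In 9 of 180 combinations of a member and a group, 1 of the 4 libraries lay far from the other 3, and chance alone flags about 1 in 20 such combinations. Of these, 4 were in week 50 high, 2 in week 50 low, 1 in week 72 high, 2 in week 72 low and 0 at week 32. In week 50 high library 1, F9 had 853 TPM, against 622 to 660 TPM in the other 3 libraries, and SERPIND1 had 295 TPM, against 982 to 1053 TPM. In week 50 high library 4, C8B had 134 TPM, against 214 to 223 TPM, and F8 had 2.40 TPM, against 5.20 to 5.37 TPM. In week 50 low library 3, C2 had 339 TPM, against 184 to 200.5 TPM, and VTN had 5034 TPM, against 3384 to 3561 TPM. In week 72 low library 2, C2 had 343 TPM, against 175 to 192 TPM. In week 72 low library 3, C3 had 2608 TPM, against 5729.6 to 5979.9 TPM in the other 3 libraries of that group. In week 72 high library 3, SERPING1 had 1769 TPM, against 1217 to 1288 TPM. Week 50 high library 1, week 50 low library 3 and week 72 low library 2 had the lowest median Spearman correlations with the other libraries over all genes, and 5 of the 9 values are theirs. Whether these values reflect the hens or the libraries was not tested.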

How the results depend on the processing

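Under 28 alternative settings, no member was called at an adjusted p under 0.05 in any of the 10 comparisons, and the smallest adjusted p of a member was 0.0567, in week 72 low minus week 50 low without week 72 low library 3. With the replicate block, 0 members were called and 10 were higher at an unadjusted p under 0.05 in week 72 low minus week 50 low (against 2.01% of all genes), and the numbers do not pair the libraries. Counts at an unadjusted p under 0.05 that moved by more than 1.5 times are given with the share of all genes under the same setting. With median-ratio scaling, 8 were lower in week 50 low minus week 32 (against 4.33% of all genes, and 3 otherwise), 2 lower and 0 higher in week 50 high minus week 32 (against 3.92% and 4.72%, and 1 and 1 otherwise), and 2 higher in week 72 high minus week 50 high (against 1.56%, and 0 otherwise). This scaling moved the median of all genes to 0.00 in week 50 low minus week 32, against 0.09 otherwise. With totals that leave out the yolk genes, 5 were lower in week 50 low minus week 32 (against 2.69%), 3 higher in the mean over both ages (against 5.11%, and 1 otherwise), 1 higher in week 72 high minus week 72 low (against 4.69%, and 0 otherwise) and 1 lower in week 72 high minus week 50 high (against 3.92%, and 0 otherwise). With only the groups compared, 6 were higher in week 72 low minus week 50 low (against 1.62%, and 10 otherwise), 6 lower in week 50 low minus week 32 (against 2.27%), 3 higher and 0 lower in week 72 high minus week 32 (against 4.87% and 2.9%, and 1 and 1 otherwise), 2 higher in week 50 high minus week 32 (against 11.2%), 1 higher in week 72 low minus week 32 (against 3.49%, and 2 otherwise), 1 higher in week 72 high minus week 72 low (against 3.78%) and 1 lower in week 72 high minus week 50 high (against 5.26%). The block gave 2 higher in week 50 high minus week 50 low and in the mean over both ages (against 2.46% and 5.22%, and 1 otherwise), 1 higher in week 72 high minus week 72 low (against 3.96%), 1 lower in week 72 high minus week 50 high (against 5.08%) and 0 lower in week 50 high minus week 32 (against 1.64%). The filter of 5 TPM gave 0 lower in week 72 high minus week 32 (against 1.95%), and no filter gave 1 lower in week 72 high minus week 50 high (against 3.86%). Fibrinogen differences near 0 changed sign, and the cause was not tested. With median-ratio scaling FGB was -0.0032 in week 50 high minus week 50 low and FGA was -0.041 in the mean over both ages. Leaving out 1 library at a time gave, in week 50 high minus week 50 low, -0.078 to 0.23 for FGB and -0.094 to 0.26 for FGG, and in week 72 high minus week 72 low, -0.58 to 0.032 for FGG. In the mean over both ages it gave -0.16 to 0.16 for FGA, -0.29 to 0.013 for FGB and -0.25 to 0.061 for FGG, and in week 72 high minus week 32, -0.19 to 0.43 for FGA, -0.13 to 0.39 for FGB and -0.19 to 0.43 for FGG.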
